A study of Drosophila melanogaster with 6 samples.

Results

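The 30 genes described here encode the Dpr proteins and their partners, the DIPs (Dpr-interacting proteins), and were measured in whole *Drosophila melanogaster* eyes dissected from pupae at 40 and at 21 hours after puparium formation (h APF). They are the rows of the deposited table whose gene symbol is dpr followed by digits (21 genes) or starts with DIP- (9 genes), out of 17649 genes in all. Both stages were taken from wild-type Canton S flies, in 3 biological replicates per stage whose RNA was extracted from pooled eyes. Every value below is in FPKM, a fragment count that has been scaled to both transcript length and library size. The authors deposited 1 FPKM per gene and stage, pooled over the replicates, so no value has an SD. The table's own test results were not used here, and the differences are given as descriptions.

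Dpr and DIP proteins are cell surface proteins of neurons with immunoglobulin domains, and a Dpr on one cell binds particular DIPs on another. The founding gene, dpr1, was named for a defective proboscis extension response, a taste behaviour. In the visual system these pairs act where photoreceptors and the neurons of the lamina and medulla choose their synaptic partners, and they also affect the survival of some of those neurons. Binding falls into groups that overlap: DIP-alpha with dpr6 and dpr10, DIP-beta with dpr8, dpr9 and dpr21, DIP-gamma with dpr11, dpr15, dpr16 and dpr17, DIP-delta with dpr12, DIP-epsilon and DIP-zeta with dpr13, dpr14, dpr19 and dpr20, and DIP-eta, DIP-theta and DIP-iota with dpr1 to dpr5. For the description below, dpr18 was set beside DIP-epsilon and DIP-zeta and dpr7 beside DIP-eta, without certainty about their partners.

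Summed over the whole table, there were 562299 FPKM at 40 h, against 557572 at 21 h APF, and the median log2 ratio of 40 h over 21 h was -0.02 over those genes that reached 1 FPKM or more at the higher stage. The table holds no fragment counts, and no counting interval is given for low values. Ratios are log2((FPKM at 40 h + 0.1)/(FPKM at 21 h + 0.1)), which understates the change of genes with low FPKM. A gene was counted as changed at 2-fold or more on this scale with at least 1 FPKM at the higher stage.

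Most dpr and DIP genes had more mRNA at 40 h APF. Of the 29 members that reached 1 FPKM, 25 were higher at 40 h by any amount, as were 49.1% of the 9828 genes with at least 1 FPKM at the higher stage. At least a 2-fold difference was found for 16 of them, which were higher at 40 h, beside 14.8% of the 9828 genes. DIP-delta alone was at least 2-fold lower, as were 10.7% of the 9828 genes. The remaining 12 members differed by less than 2-fold. The median log2 ratio was 1.39 over the 29 members, 1.58 over the 21 dpr genes and 0.79 over the 8 DIP genes, and 7 of the 29 passed the minimum only through their 40 h level. Over the 22 members with at least 1 FPKM at 21 h the median was 0.91. At least 4-fold higher at 40 h were 10 members and 7.54% of the 9828 genes. With at least 1 FPKM at 21 h, these were 5 of the 22 members and 325 of 9192 genes.

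**Figure D1:**
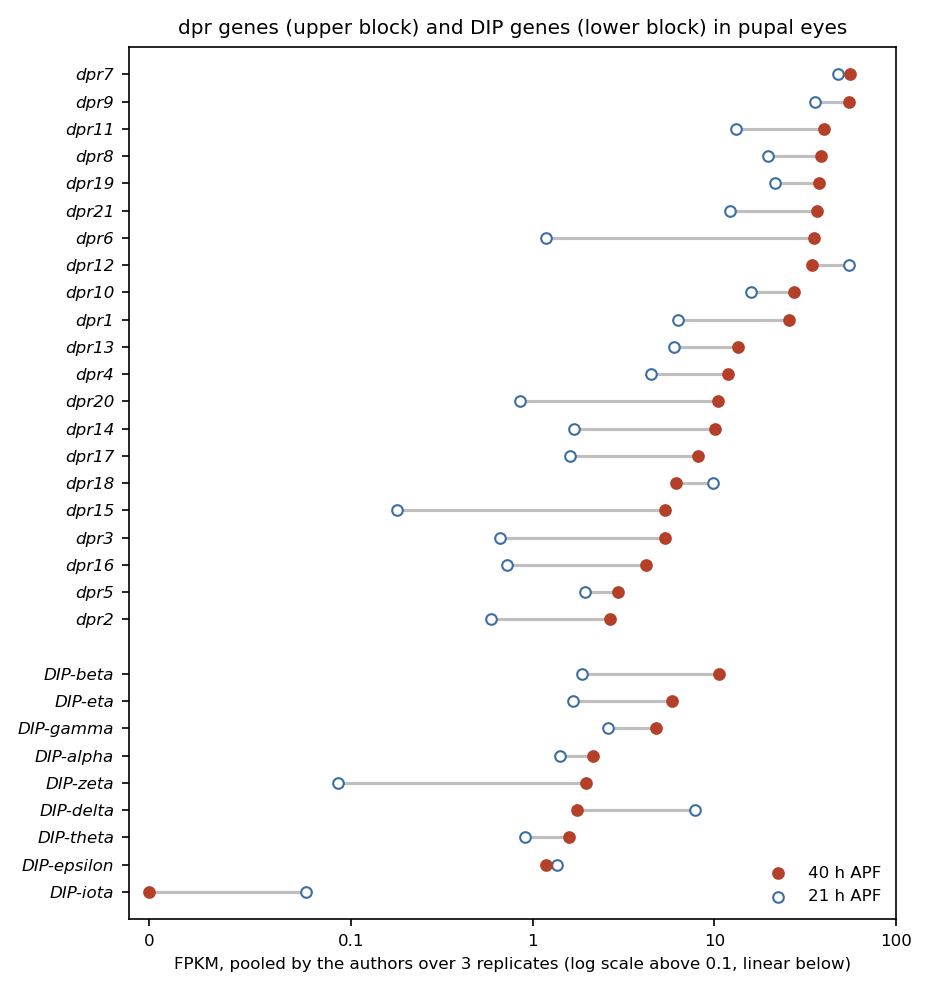
FPKM of the 21 dpr genes (upper block) and the 9 DIP genes (lower block), as pooled by the authors for each stage, on an axis that is logarithmic above 0.1 FPKM and linear below. Filled points are 40 h APF, open points 21 h APF, and grey lines join the stages of a gene. The dpr genes lie between 2.65 and 56.1 FPKM at 40 h and between 0.179 and 55.3 FPKM at 21 h, and the filled point is to the right for 25 of the 30 genes.

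Some members reached 1 FPKM only at 40 h and therefore had to be higher there to be counted. These were dpr2, dpr3, dpr15, dpr16, dpr20, DIP-theta and DIP-zeta. Of the 22 members that had at least 1 FPKM at 21 h, 10 were at least 2-fold higher at 40 h and 1 was lower, and 9.86% of the 9192 genes with that level at 21 h were higher. Of the 14 members with at least 2 FPKM at 21 h, 5 were at least 2-fold higher, beside 8.76% of all genes at that level. Among genes under 2 FPKM at 21 h the background was 51.7%, and 11 of 15 members were at least 2-fold higher there.

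The largest ratio belonged to dpr6 (FBgn0040823, chromosome 3L, bases 9974651 to 10139360 of BDGP6), a ligand of DIP-alpha. It had 35.6 FPKM at 40 h, against 1.18 at 21 h APF, 30.1-fold higher at 40 h. Its log2 ratio of 4.80 ranked 178th among the 9828 genes, and within the 30 members it stood 7th by level at 40 h and 22nd at 21 h. The other ligand of this receptor, dpr10 (FBgn0052057, chromosome 3L, bases 10147454 to 10186108), which also acts in muscle during the wiring of motor neurons, was less changed, with 27.6 FPKM at 40 h, against 15.9 at 21 h. The genes lie 8.1 kb apart on opposite strands, without a shared exon base. The receptor gene DIP-alpha itself, which acts in medulla neurons and motor neurons, stayed low in the eye, at 2.14 FPKM at 40 h, against 1.42 at 21 h.

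All 4 ligand genes of the DIP-gamma group were at least 2-fold higher at 40 h APF, beside 14.8% of the 9828 genes. Among genes under 2 FPKM at 21 h, as dpr15, dpr16 and dpr17 were, the share was 51.7%. Both dpr15 and dpr16 passed the minimum only through their 40 h level. The most abundant of the 4 was dpr11 (FBgn0053202, chromosome 3R, bases 6529169 to 6593330), with 40.1 FPKM at 40 h, against 13.1 at 21 h. It is known as a marker of the yellow class of R7 photoreceptors. The largest ratio in this group was that of dpr15 (FBgn0037993, chromosome 3R, bases 12138833 to 12158595), with 5.38 FPKM at 40 h, against 0.179 at 21 h. That is 30.0-fold for the FPKM themselves and a log2 ratio of 4.29 with the added 0.1 FPKM, or 2.44 with 1 FPKM added. Close to it, 27.4 kb away on chromosome 3R and on the other strand, dpr17 had 8.17 FPKM at 40 h, against 1.60 at 21 h. The fourth gene, dpr16, had 4.19 FPKM at 40 h, against 0.723 at 21 h, and 4.04% of its exon bases overlap cno, which had 64.5 FPKM at 40 h, against 63.0 at 21 h. DIP-gamma, which is expressed by medulla partners of R7 cells, had 4.78 FPKM at 40 h, against 2.61 at 21 h, 1.83-fold higher at 40 h.

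**Figure D2:**
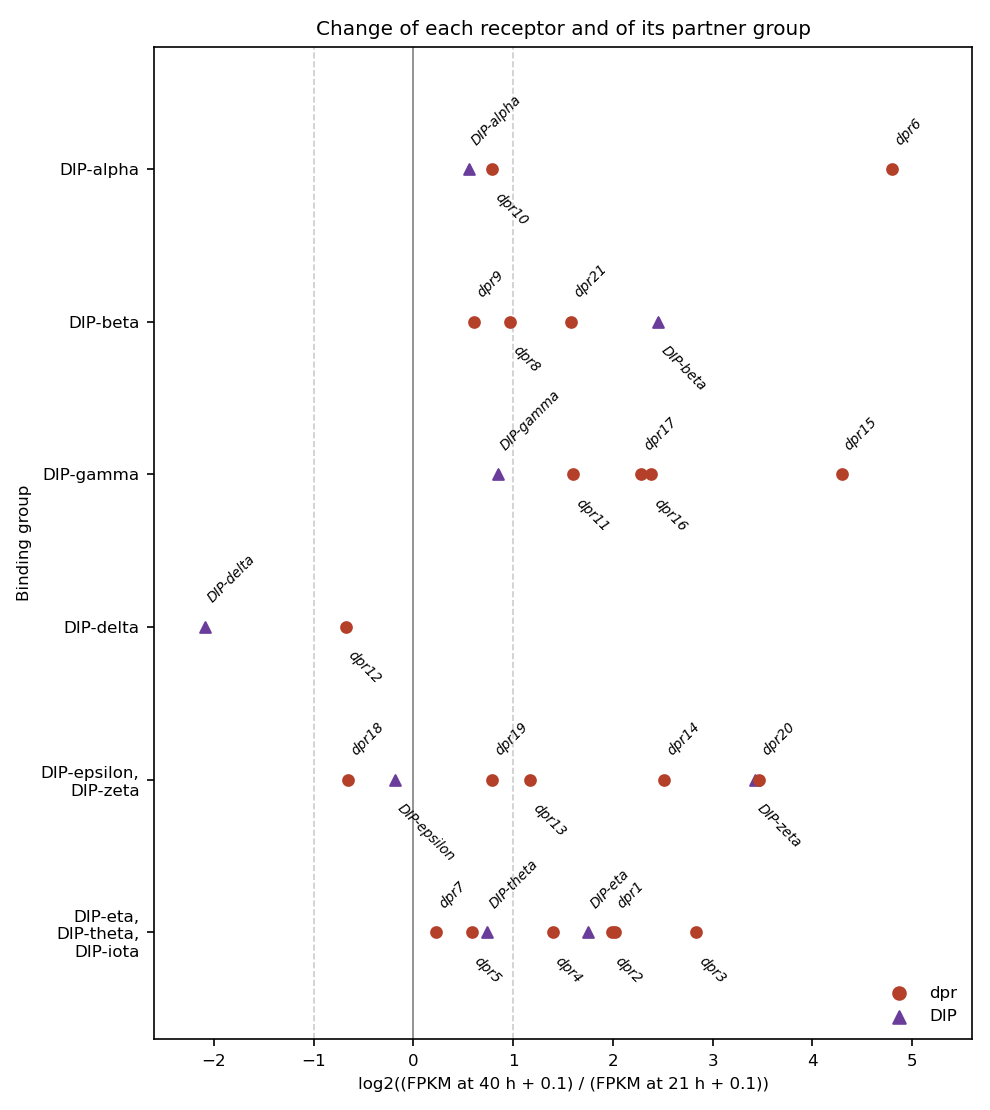
Log2 ratio of 40 h over 21 h APF, with 0.1 FPKM added at each stage, for each member in its binding group. Circles are dpr genes, triangles are DIP genes, dashed lines mark 2-fold, and DIP-iota, listed at 0 at 40 h, is left out. Both genes of the DIP-delta group lie left of 0, and all genes of the DIP-alpha, DIP-beta and DIP-gamma groups lie right of it.

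In the DIP-beta group the receptor gene had the largest ratio. DIP-beta (FBgn0259245, chromosome X, bases 21422115 to 21457738), which acts in lamina neurons, was the most abundant DIP gene at 40 h, with 10.7 FPKM at 40 h, against 1.86 at 21 h APF, a log2 ratio of 2.46. Its ligand genes were all more abundant than the receptor gene at both stages. Of these, dpr21 had 36.9 FPKM at 40 h, against 12.3 at 21 h, a log2 ratio of 1.58, on a gene model of only 993 exon bases. The FPKM of dpr8 were 38.8 at 40 h and 19.7 at 21 h, which at a log2 ratio of 0.97 is the member closest to 2-fold from below. For dpr9 they were 54.8 at 40 h and 36.0 at 21 h, a log2 ratio of 0.61. With 140.1 kb, dpr8 is one of the longest members, and it shares no exon base with another gene.

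DIP-delta and its ligand dpr12 were both lower at 40 h APF, but only DIP-delta by at least 2-fold. Among the 9828 genes, 49.1% were higher by any amount and 10.7% were at least 2-fold lower. This pair is known from the mushroom body, where it is needed for the regrowth of axons into their adult zone. DIP-delta (FBgn0085420, chromosome 3L, bases 5424109 to 5442399) had 1.76 FPKM at 40 h, against 7.83 at 21 h, 4.46-fold lower at 40 h, and only 4.41% of the 9828 genes had a log2 ratio below its -2.09. The gene dpr12 (FBgn0085414, chromosome 2R, bases 5804712 to 5860831) had 34.5 FPKM at 40 h, against 55.3 at 21 h, 1.60-fold lower at 40 h. It was the most abundant member at 21 h and the 8th at 40 h.

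The genes set beside DIP-epsilon and DIP-zeta, receptors known from neurons of the fruitless circuit, differed in direction. DIP-zeta had 1.97 FPKM at 40 h, against 0.0935 at 21 h APF, while DIP-epsilon had 1.19 FPKM at 40 h, against 1.37 at 21 h. The log2 ratios were 3.42 for DIP-zeta and -0.19 for DIP-epsilon, and the ratio of DIP-zeta rests on a value below the added 0.1 FPKM and was 1.44 with 1 FPKM added. Among the ligand genes dpr20 had the largest ratio, 3.47, with 10.5 FPKM at 40 h, against 0.856 at 21 h, and dpr14 followed with 10.1 FPKM at 40 h, against 1.69 at 21 h. The more abundant ligand genes differed less between the stages. The FPKM of dpr13 were 13.5 at 40 h and 5.97 at 21 h, and those of dpr19 were 37.6 at 40 h and 21.7 at 21 h. A lower level at 40 h was found for dpr18 alone of these ligand genes, at 6.18 FPKM at 40 h, against 9.80 at 21 h, 1.58-fold lower at 40 h.

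In the group of DIP-eta, DIP-theta and DIP-iota, dpr1 to dpr5 and dpr7, whose partner is uncertain, were all higher at 40 h APF. Their log2 ratios lay between 0.23 and 2.84. Of the 9828 genes, 49.1% were higher by any amount. Both dpr2 and dpr3 passed the minimum only through their 40 h level, so they had to be higher to be counted. At the upper end dpr3 had 5.34 FPKM at 40 h, against 0.662 at 21 h, and at the lower end dpr7 had 56.1 FPKM at 40 h, against 48.0 at 21 h. Between them, dpr1 (FBgn0040726, chromosome 2R, bases 20698483 to 20750442) had 25.8 FPKM at 40 h, against 6.29 at 21 h, 4.10-fold higher at 40 h. The gene dpr2 had a similar ratio at a lower level, with 2.65 FPKM at 40 h, against 0.592 at 21 h, and its log2 ratio of 1.99 was 1.20 with 1 FPKM added. A pair of these ligand genes lies 27.5 kb apart on chromosome 3R, of which dpr4 had 11.9 FPKM at 40 h, against 4.48 at 21 h, and dpr5 had 2.97 FPKM at 40 h, against 1.94 at 21 h. Of the exon bases of dpr4, 15.7% overlap CR45056 on the opposite strand, which had 1.49 FPKM at 40 h, against 0.482 at 21 h.

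The receptor genes of that group had low levels. DIP-eta had 5.87 FPKM at 40 h, against 1.68 at 21 h APF, a log2 ratio of 1.75. Its neighbour on chromosome 2L, DIP-theta, 8.3 kb away on the same strand, had 1.59 FPKM at 40 h, against 0.910 at 21 h, and 12.6% of its exon bases overlap CR44822. The log2 ratio of DIP-theta was 0.74, or 0.44 with 1 FPKM added. DIP-iota was listed at 0 at 40 h and had 0.0780 FPKM at 21 h, so no fold is given for it. The annotation used for positions also names 2 genes of the table, CG31814 and CG45781, as DIP-kappa and DIP-lambda, which the rule did not take. CG31814 had 3.78 FPKM at 40 h, against 0.872 at 21 h, and CG45781 had 4.93 FPKM at 40 h, against 1.12 at 21 h.

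**Figure D3:**
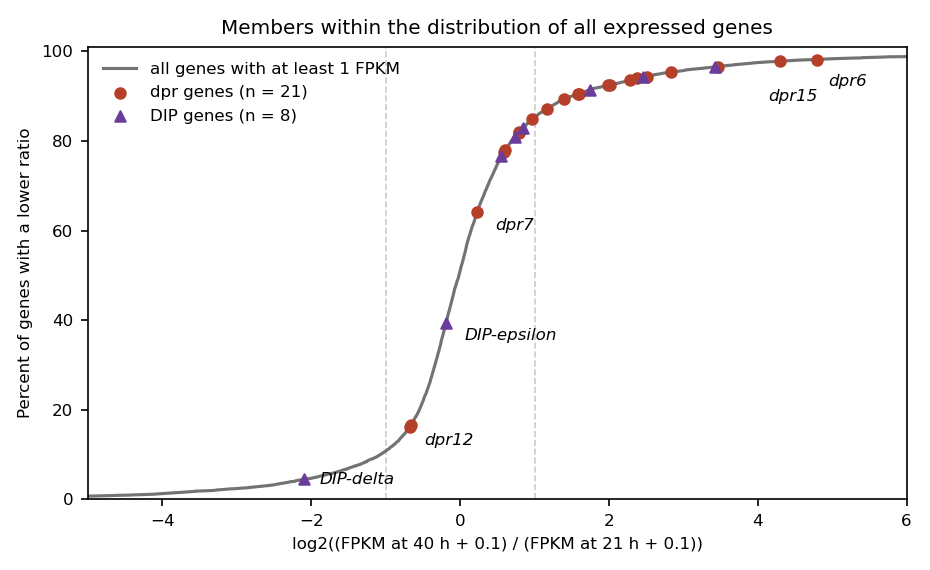
Cumulative distribution of the log2 ratio (40 h over 21 h APF, 0.1 FPKM added) over the 9828 genes that reached 1 FPKM at the higher stage, with the 21 dpr genes as circles and 8 DIP genes as triangles. Dashed lines mark 2-fold. The dpr genes reach from dpr12 at -0.68 to dpr6 at 4.80, and DIP-delta lies apart at -2.09.

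As families, the ligand genes were much more abundant than the receptor genes. The FPKM of the 21 dpr genes summed to 469 at 40 h, against 258 at 21 h APF, 1.82-fold higher at 40 h. Those of the 9 DIP genes summed to 30.0 at 40 h, against 17.9 at 21 h, 1.68-fold higher at 40 h. The log2 ratio of the DIP sums was 0.75, and it was 0.27 without DIP-beta and 1.49 without DIP-delta. The difference of the dpr sums was 211 FPKM, net of the lower levels of dpr12 and dpr18. The 5 largest gains, those of dpr6, dpr11, dpr21, dpr1 and dpr8, summed to 125 FPKM. In bulk tissue, fewer cells of a type and less RNA per cell cannot be told apart.

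The dpr mRNA was spread over more genes at 40 h APF. The 3 most abundant genes held 32.2% of the dpr sum at 40 h, when they were dpr7, dpr9 and dpr11, and 54.0% at 21 h, when they were dpr12, dpr7 and dpr9. The share of dpr12 alone was 7.36% at 40 h and 21.4% at 21 h, and that of dpr6 was 7.59% at 40 h and 0.458% at 21 h. At least 10 FPKM were reached by 14 dpr genes at 40 h and by 8 at 21 h. Among the DIP genes the most abundant one changed, with DIP-beta at 35.6% of the sum at 40 h and 10.4% at 21 h, and DIP-delta at 5.86% at 40 h and 43.9% at 21 h.

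**Figure D4:**
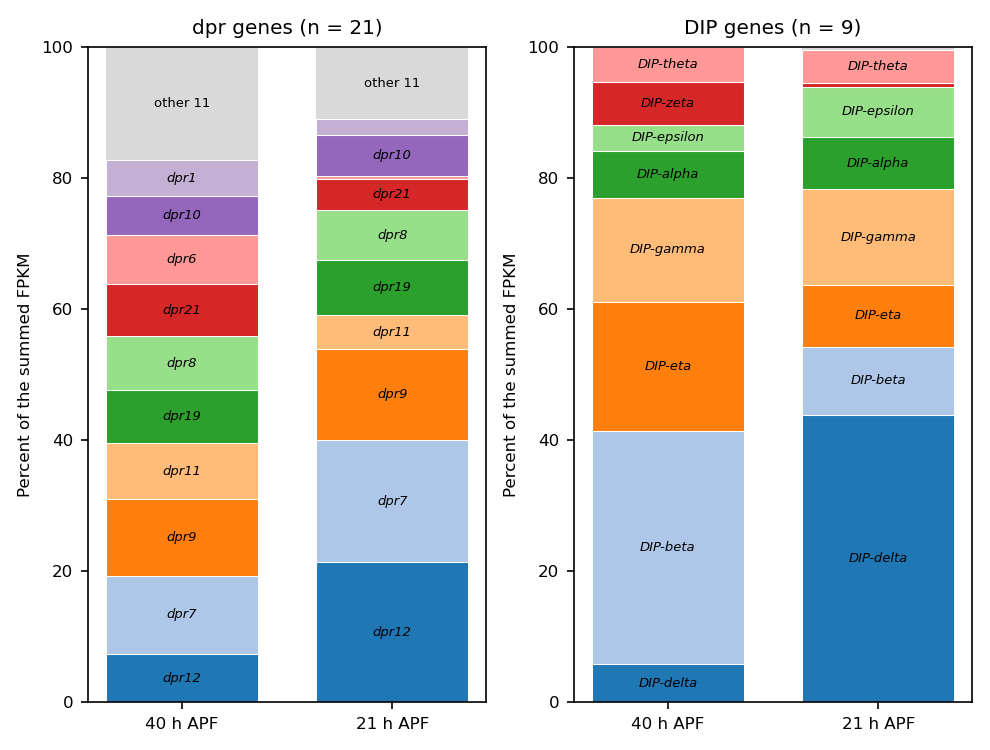
Share of each gene in the summed FPKM of the dpr genes (left panel) and the DIP genes (right panel), with 40 h APF as the left bar and 21 h APF as the right bar of each panel. Grey blocks pool the genes with small shares, and blocks too thin for a name keep the colour of the other bar. DIP-delta takes 5.86% of the DIP sum at 40 h and 43.9% at 21 h.

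The members are long genes with many exons, a feature that the rule did not use. They span between 3.74 and 164.7 kb with a median of 27.3 kb, beside a median of 1.69 kb over the 17512 genes of the table that the annotation holds. Their exons, merged over transcripts, number between 6 and 13 with a median of 8, and the median over all genes is 3. The aligner that the authors used, bowtie2, is not splice-aware, so reads spanning exon junctions could not be placed as spliced reads at either stage. No exon base is shared with another gene for 24 of the 30 members, and the largest share is the 15.7% of dpr4. The 30 genes are spread over all chromosome arms, with 8 each on chromosomes 2L and 3R, 5 on X, 4 each on 2R and 3L and 1, dpr7, on chromosome 4.

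Genes of other lists of surface proteins, not all confined to neurons, were also mostly higher at 40 h APF, if changes of any size are counted. With at least 1 FPKM, they were 4 of 5 proteins with related immunoglobulin domains, 12 of 14 beat and side genes and 16 of 19 other axonal surface proteins, beside 49.1% of the 9828 genes. At least 2-fold higher were 14.8% of the 9828 genes. Of the 5 proteins with immunoglobulin domains like those of the DIPs, 2 were at least 2-fold higher and none was at least 2-fold lower. The higher ones were klg, which acts in photoreceptor differentiation, with 72.7 FPKM at 40 h, against 31.8 at 21 h, and CG34353, with 34.8 FPKM at 40 h, against 5.73 at 21 h. Of the beat and side genes, another pair of receptor and ligand families of axons, 9 of the 14 with at least 1 FPKM were at least 2-fold higher. The largest log2 ratios were 3.16 for beat-IIb and 2.74 for beat-VI. At least 2-fold lower were 2 of the 14, beat-IIIc and beat-VII, and the median log2 ratio was 1.20. Only 11 of these 14 genes had at least 1 FPKM at 21 h, and the others had to be higher at 40 h to be counted. Of the 19 other axonal surface proteins 6 were at least 2-fold higher and none was at least 2-fold lower, with a median of 0.26. The largest log2 ratios were 3.45 for haf and 2.27 for fred, while 3 of the 19, ed, trn and robo3, were lower by less than 2-fold. The lists were chosen with earlier results of these data known. The paper had already reported haf, tutl and several beat genes as higher at 40 h, so these counts are not independent of its results. No test was made between these lists and the dpr and DIP genes.

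**Figure D5:**
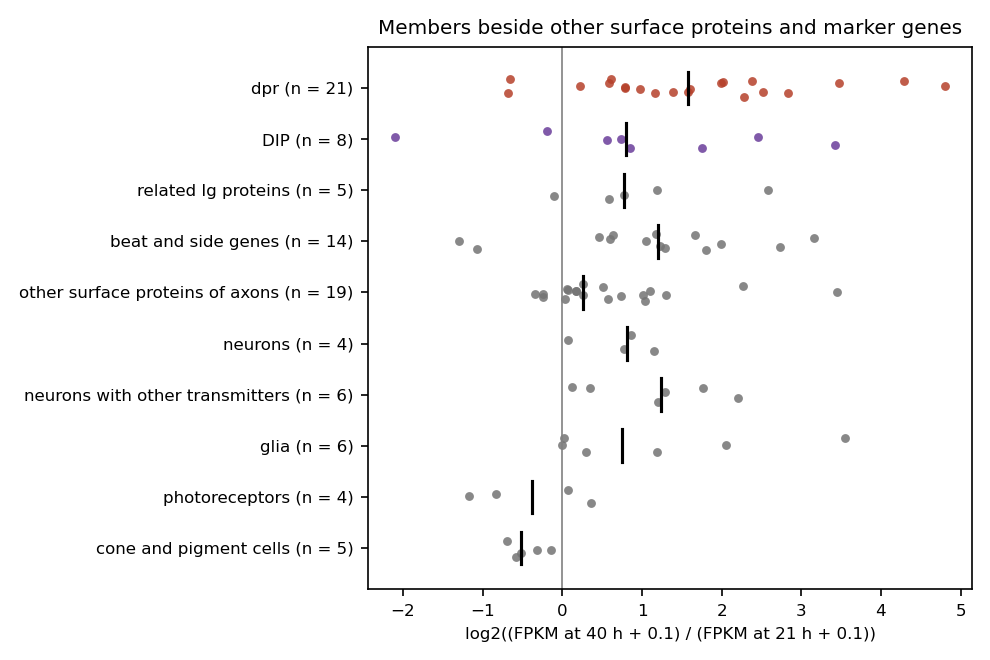
Log2 ratio (40 h over 21 h APF, 0.1 FPKM added) of the genes with at least 1 FPKM at the higher stage in 10 lists, each point 1 gene and each black bar the median of its list, with n in the row labels. Points are shifted vertically at random only to keep them apart. The median is 1.58 for the dpr genes, 0.79 for the DIP genes, 1.20 for the beat and side genes and -0.52 for the cone and pigment cell markers.

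Markers of the cell types that the dissected eyes can hold moved in both directions between the stages, and their part in the change of the dpr and DIP genes was not tested. The general neuronal gene elav had 89.6 FPKM at 40 h, against 84.9 at 21 h APF, while the synaptic gene brp had 168 FPKM at 40 h, against 75.7 at 21 h. Over the 4 neuronal markers the sum was 544 FPKM at 40 h, against 322 at 21 h. Of them, 1 was at least 2-fold higher, beside 14.8% of the 9828 genes. All 4 photoreceptor markers were above 28 FPKM at both stages, as the tissue label has it, and the sum of that list was 367 FPKM at 40 h, against 665 at 21 h. The lower sum came from chp, at least 2-fold lower with 164 FPKM at 40 h, against 370 at 21 h, and from gl, with 132 FPKM at 40 h, against 235 at 21 h. Pph13 and oc were 1.29-fold and 1.06-fold higher at 40 h.

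Markers of neurons that use another transmitter than photoreceptors were between 1.38 and 29.8 FPKM at 40 h APF and between 0.221 and 8.67 FPKM at 21 h. Of these 6 markers 4 were at least 2-fold higher at 40 h, beside 14.8% of the 9828 genes. One of the 4, ple, passed the minimum of 1 FPKM only through its 40 h level. The sum of the 6 markers was 63.6 FPKM at 40 h, against 24.0 at 21 h. Of 6 glial markers 3 were at least 2-fold higher, with a sum of 386 FPKM at 40 h, against 277 at 21 h. Those 3 were alrm, with 23.2 FPKM at 40 h, against 1.89 at 21 h, Eaat1, with 22.3 against 5.30, and wrapper, with 64.8 against 28.4. The glial regulator repo was at 40.4 FPKM at 40 h, against 40.5 at 21 h, and nrv2 and moody were higher by less than 2-fold. The 5 markers of cone and pigment cells summed to 122 FPKM at 40 h, against 171 at 21 h, and none changed 2-fold. The hemocyte genes Hml, NimC1 and srp and both tracheal genes stayed under 1 FPKM, whereas Pxn, the fourth gene of the hemocyte list, had 53.4 FPKM at 40 h, against 1.92 at 21 h. The 4 muscle genes summed to 7.46 FPKM at 40 h, against 12.8 at 21 h, a sum led by Act57B, which had 3.43 FPKM at 40 h, against 12.6 at 21 h. The other muscle genes were higher at 40 h. For up the FPKM were 1.72 at 40 h and 0.0778 at 21 h, for Mlc1 1.52 at 40 h and 0.148 at 21 h, and for Mhc, which stayed under 1 FPKM, 0.794 at 40 h and 0.0214 at 21 h. No marker of any list was at 0.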

How the data were processed

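Whole eyes of Canton S pupae were dissected at 40 and 21 h APF, with 3 biological replicates per stage and 6 libraries in all. Reads were aligned by the authors to BDGP6 with bowtie2 and the Ensembl release 93 annotation, and Cuffdiff was run with geometric normalization and bias correction. Versions, and whether strand was used in counting, are not given in the sources used here. The deposited FPKM are 1 value per gene and stage, pooled over replicates. The table's columns of log2 fold change, test statistic, p-value, q-value and significance are the authors' own comparison and were not used here. The FPKM, pooled by stage, allow no separate test across replicates.

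Ratios, counts at 2-fold, medians and sums were computed with Python 3.11.15, numpy 2.4.6 and pandas 2.3.3, and figures with matplotlib 3.10.9. Every dpr and DIP- gene was named, while not every gene of the other lists was. The members, lists and binding groups were chosen with earlier results of these data known. Positions (1-based) and exon overlaps were read from release 115 of Ensembl, also on BDGP6, in which 137 genes of the table have no entry. DIP-kappa and DIP-lambda, and a minimum of 1 FPKM at 21 h, were added as alternatives after the data were seen. No sequences of the members were used here.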

Additional observations from a re-analysis of the deposited data

How the results depend on the processing

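No paired analysis was possible because each stage has 1 pooled value per gene, and for the same reason no replicate could be left out. A value was taken as moved when it differed by at least 0.1 on the log2 scale, and a count when it differed by over 1.5 times. The count of 16 members at least 2-fold higher at 40 h lay between 13 and 23 under the alternatives, the extremes being folds of 3 and 1.5 and a minimum of 5 FPKM, except for 10 with a minimum of 1 FPKM at 21 h. That minimum, added after the data were seen, gave medians of 0.91 over all members and 1.07 over dpr genes. The count of 1 lower member became 3 at a fold of 1.5, with dpr12 and dpr18. For the folds of 1.5 and 3 and the minimum of 5 FPKM no share of all genes is given, so those counts have no background. With a pseudocount of 1 FPKM the median log2 ratios were 1.20 for all members, 1.24 for dpr and 0.56 for DIP genes. Over all members the median was 1.28 with no minimum, 1.58 with a minimum of 5 FPKM, 1.58 without the genes sharing over 10% of their exon bases (dpr4 and DIP-theta), and 1.58 with DIP-kappa and DIP-lambda, an alternative added after the data were seen. For DIP genes alone it was 1.75 with the minimum of 5 FPKM and 1.30 with those added genes. The log2 ratio of the summed FPKM was 0.97 for dpr genes without dpr7, and for DIP genes 0.27 without DIP-beta and 1.49 without DIP-delta, the last also added later. The direction of a called member could not change under these settings, so it is no check. A pseudocount added to both stages cannot reverse a ratio. Centring used a median log2 ratio of -0.02 and rescaling a ratio of sums of 1.008, too small to reverse a 2-fold call. Of the 30 single ratios, 20 moved by at least 0.1 with a pseudocount of 1 FPKM and 8 with 0.01 FPKM. Centring and rescaling shift every ratio by less than 0.1 and so could move none. The log2 ratio of DIP-zeta was 1.44 with 1 FPKM and 4.26 with 0.01 FPKM, and that of dpr15 was 2.44 and 4.83. No counting interval was computed for low FPKM such as theirs at 21 h.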
